A study of Mus musculus with 2 samples.

Results

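The genes described here are the kinesins and the centromere proteins, taken as every gene symbol of the table that is Kif or Cenp followed by a member number or letter. The rule found 58 of 25663 genes, 37 with a Kif symbol and 21 with a Cenp symbol. Kif1bp meets the rule by its name but encodes KIF1-binding protein, a partner of kinesins and not a motor. Cenpj encodes a centriole protein and Cenpv a protein that binds microtubules, so neither belongs to the inner kinetochore.

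The series holds 1 single-cell RNA library from Control embryos and 1 from Tet3 knockout (Tet3KO) embryos. Both are sorted epithelial cells of the small intestine at the fetal stage E18.5, labelled C57BL6/J, and each is a pool from 2 embryos. In the knockout, exon 5 of Tet3, a dioxygenase that oxidises methylated cytosine, is deleted in the germ line, which shifts the reading frame and puts a stop codon into exon 6; the line comes from embryonic stem cells of a (C57BL6/J x C3H/HeJ)F1 background and was backcrossed for 5 or more generations. Cells were fixed in 90% methanol, 6000 were used per sample, and transcripts were captured at their 3' ends with a unique molecular identifier (UMI) for each molecule.

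The deposited table pools both libraries, with 11871 cells as rows. The cell barcodes carry a suffix 0 or 1, here set 0 and set 1, and no label ties a suffix to Control or Tet3KO, so the genotypes were not compared and each set is given on its own. Of the 5938 rows of set 1, 818 have a barcode that is also in set 0; they were left out of set 1, which leaves 5120 rows beside 5933 in set 0. A set is 1 sample, so no difference below has a replicate check, and intervals cover counting error only. Levels are means over cells of the deposited signal, in which every cell sums to 10000 (CP10K). The median cell held 23657 recovered UMIs in set 0 and 22374.5 in set 1. Both medians exceed 10000, the labelled read number for a cell, and the cause of this mismatch was not tested. UMI counts, their intervals and the thinning described below rest on the recovered depth.

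Kinesins use ATP to walk along microtubules or to take their ends apart. One branch of the family builds and moves the mitotic spindle and the midzone between separating chromosomes, and the other carries vesicles, organelles and cilium parts in cells that do not divide. Centromere proteins mark and build the site where spindle microtubules hold a chromosome: the histone variant Cenpa marks it, the constitutive centromere network sits on it throughout the cell cycle, and the outer corona joins it in mitosis. In the intestine, cells divide in the pockets between the villi, and absorptive enterocytes and goblet cells leave the cell cycle as they mature.

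Rows were sorted by 3 rules that use none of the genes described. Dividing rows had any signal of Mki67 or Top2a, nuclear proteins made by cycling cells, and numbered 1091 in set 0 (18.4%) and 973 in set 1 (19.0%). Fabp1-high rows had at least 100 CP10K of Fabp1, the fatty acid binding protein of absorptive cells, and numbered 3354 and 2786. Mucus-gene rows had at least 10 CP10K of Muc2, Fcgbp and Spink4 together, products of goblet cells, and numbered 127 and 55. The 1674 and 1529 rows that met no rule were the reference. The classes overlap: 240 and 192 rows were both dividing and Fabp1-high, and 40 and 23 were both dividing and mucus-gene rows.

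The epithelial markers Epcam, Cdh1 and Krt8 summed to between 17.99 and 33.0 CP10K in each class and set. Of the mesenchymal markers, Col3a1 stood at 0.241, Dcn at 0.218 and Col1a1 at 0.102 CP10K in the dividing rows of set 1. They stood at 0.0258, 0.00394 and 0.0122 in the set 1 reference and at 0.00757, 0.000111 and 0.00125 in the set 0 dividing rows. Vim, the other marker, stood at 0.0792 in the set 1 dividing rows and 0.0801 in the set 1 reference. The part of these in the set 1 ratios was not tested. Summed over 6 absorptive markers, Fabp1 left out, the Fabp1-high rows held 659 CP10K in set 0 and 613 in set 1, against 228 and 214 in the reference. Of the 6, only Vil1 was not higher in both sets, at 3.00 and 2.81 against 3.26 and 2.62 in the reference. The reference held absorptive transcripts too, with Apoa1 at 112 and 95.4 CP10K, so it is not free of absorptive cells. Summed over 4 goblet markers, with the 3 genes of the rule left out, the mucus-gene rows held 91.4 and 119.8 CP10K, against 0.692 and 0.748 in the reference. The mucus-gene rows also held 16.7 and 35.1 CP10K of 4 Paneth cell markers, against at most 1.40 in the dividing, Fabp1-high and reference rows. Of the dividing rows, 420 and 381 had a single UMI of Mki67 and Top2a together, and 171 and 243 Fabp1-high rows lay within 25 CP10K above the Fabp1 limit.

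A gene was called higher or lower in a class when it differed from the reference at least 2-fold in the same direction in both sets (log2 ratio of 1 or more with 0.01 CP10K added), and its mean reached 0.05 CP10K in the class or the reference of each set. Of the 58 genes, 43 reached that level in at least 1 class of 1 set: 24 with a Kif symbol and 19 with a Cenp symbol. The other 15 stayed at or below 0.0472 CP10K in the 3 classes and the reference. They were Cenpi, Cenpj, Kif18b and 12 kinesins with roles outside mitosis, among them the neuronal motors Kif1a, Kif5a and Kif5c, the cilium kinesins Kif9, Kif17 and Kif27, and Kif7 of hedgehog signalling.

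In the dividing rows 23 of the 58 genes were called higher and 0 lower, out of 40 that reached the level minimum in this comparison. Over all 9471 genes that reached it, 4.59% were called higher and 1.13% lower. The 23 were 9 of the 12 mitotic kinesins, both corona proteins, Cenpa and 11 of the 14 genes of the constitutive centromere network. A gene with a reference mean under the level minimum in either set could be called higher but not lower. That was so for all of the 23 except Cenpa and Cenpw, so the absence of lower calls says nothing about those genes. The same limit holds for every later comparison with the reference. None of the 24 interphase kinesins was called, and the 12 of them that reached the level minimum had log2 ratios between -0.74 and 0.48.

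**Figure D1:**
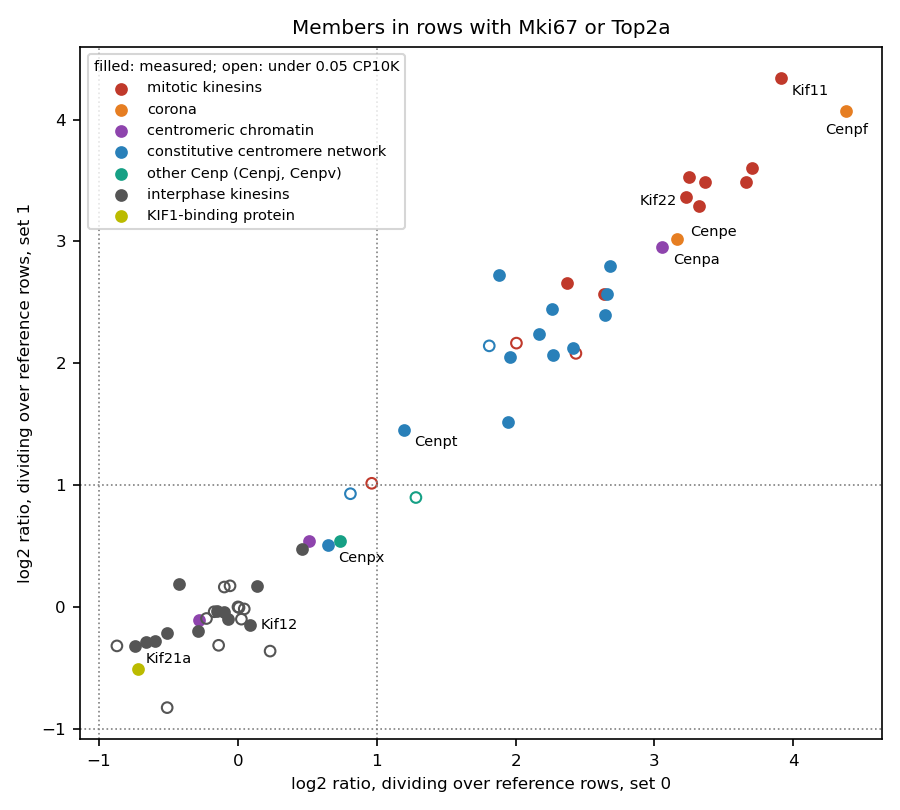
Each point is 1 gene, placed by its log2 ratio of dividing over reference rows in set 0 (x axis) and in set 1 (y axis) and coloured by role; dotted lines mark the 2-fold limits and open points are genes under the level minimum. Mitotic kinesins and corona proteins lie at the upper right, up to 4.38 for Cenpf in set 0, and interphase kinesins lie around 0.

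Kif11 (GRCm38 chromosome 19, bases 37376403 to 37421859, plus strand), the motor that pushes the spindle poles apart, stood at 0.334 CP10K in set 0 and 0.379 in set 1 in the dividing rows and at 0.0128 and 0.00924 in the reference. That is a log2 ratio of 3.91 in set 0 and 4.34 in set 1, the widest of the kinesins. The summed counts behind it in set 0 were 1017 UMIs, or 0.302 per 10000 (95% Poisson interval 0.284 to 0.322) in the dividing rows and 41 UMIs, or 0.0105 per 10000 (95% Poisson interval 0.00756 to 0.0143) in the reference, so the intervals lie far apart. Kif15, which backs up Kif11 in spindle assembly, stood at 0.281 and 0.299 CP10K in the dividing rows of the sets against 0.0182 and 0.0175 in the reference (log2 ratios 3.36 and 3.49).

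The chromosome-arm motors behaved alike. Kif22 stood at 0.338 and 0.356 CP10K in the dividing rows of set 0 and set 1 against 0.0272 and 0.0255 in the reference (log2 ratios 3.23 and 3.37). Kif4 stood at 0.171 and 0.177 CP10K against 0.00388 and 0.00539 (log2 ratios 3.71 and 3.61). Both bind chromosomes and push them toward the spindle equator.

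The motors of the midzone and of cell separation were higher as well. Kif23, a subunit of the centralspindlin complex, had 0.323 and 0.329 CP10K in the dividing rows against 0.0163 and 0.0202 in the reference (log2 ratios 3.66 and 3.49). Kif20b had 0.335 and 0.369 against 0.0246 and 0.0287 (log2 ratios 3.32 and 3.29). Kif20a, which acts in cytokinesis, had 0.0907 and 0.117 against 0.00623 and 0.0115 (log2 ratios 2.63 and 2.57). Kif20a overlaps Cdc23 on the other strand, and Kif4 overlaps Pdzd11, so their counts could hold reads of the partner if counting ignored strand; 14 of the 58 genes overlap a protein-coding gene.

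The kinesins that shorten microtubules formed another group. Kif2c, which frees wrongly attached microtubules at the kinetochore, had 0.128 and 0.132 CP10K in the dividing rows against 0.00452 and 0.00231 in the reference (log2 ratios 3.25 and 3.53). Kif18a, which damps the swings of aligned chromosomes, had 0.0748 and 0.0787 against 0.00641 and 0.00408 (log2 ratios 2.37 and 2.66), and its gene overlaps Mettl15. Kif2a, a relative of Kif2c also used outside mitosis, was not called, with 0.405 and 0.424 against 0.291 and 0.302 (log2 ratios 0.46 and 0.48), and overlaps Dimt1.

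The remaining 3 genes listed as mitotic kinesins were under the level minimum in this comparison. The lists are not a clean split: Kif24, a centriole kinesin, was listed as mitotic, and Kif2a, used in and outside mitosis, as interphase. Kif14, a cytokinesis motor, stood at 0.0475 and 0.0355 CP10K in the dividing rows, Kif18b at 0.0326 and 0.0367 and the centriole kinesin Kif24 at 0.0379 and 0.0370. Their log2 ratios were 2.43 and 2.08 for Kif14, 2.01 and 2.17 for Kif18b and 0.96 and 1.01 for Kif24.

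Among the centromere proteins the corona pair had the widest ratios. Cenpf (chromosome 1, bases 189640606 to 189688086, minus strand), a large corona protein that binds dynein regulators, stood at 0.929 CP10K in set 0 and 0.878 in set 1 in the dividing rows and at 0.0352 and 0.0428 in the reference (log2 ratios 4.38 and 4.07). Cenpe, itself a kinesin motor that carries chromosomes along microtubules to the equator, stood at 0.451 and 0.473 against 0.0414 and 0.0495 (log2 ratios 3.16 and 3.02). Both sets gave the same order, with Cenpf ahead of Cenpe.

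The 3 genes of centromeric chromatin divided. Cenpa, the histone H3 variant of the centromere, stood at 0.761 and 0.813 CP10K in the dividing rows against 0.0827 and 0.0962 in the reference (log2 ratios 3.06 and 2.95). Cenpb, which binds a motif in centromeric repeats, was not called, at 0.763 and 0.790 against 0.930 and 0.854 (log2 ratios -0.28 and -0.11). Cenpc1, the scaffold that links Cenpa chromatin to the outer kinetochore, was not called either, at 0.116 and 0.101 against 0.0783 and 0.0666 (log2 ratios 0.51 and 0.54). Cenpb overlaps Spef1 on the same strand, so part of its count may belong to that gene.

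In the constitutive centromere network 11 of 14 genes were called higher, with medians over the 14 of 2.06 and 2.13 on the log2 scale, against -0.01 and 0.00 over all genes measured. Cenph had 0.227 and 0.294 CP10K in the dividing rows against 0.0270 and 0.0338 in the reference (log2 ratios 2.68 and 2.80), and its complex partner Cenpk 0.255 and 0.243 against 0.0321 and 0.0328 (log2 ratios 2.66 and 2.56). Cenpn, which reads the Cenpa nucleosome, had 0.0758 and 0.0791 against 0.00786 and 0.00637 (log2 ratios 2.27 and 2.45). Cenpl, its partner, had 0.124 and 0.125 against 0.0245 and 0.0226 (log2 ratios 1.96 and 2.05).

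The histone-fold arm of the network was split. Cenpw had 0.464 and 0.372 CP10K in the dividing rows against 0.113 and 0.123 in the reference (log2 ratios 1.94 and 1.52), and Cenpt, which joins it, 0.0813 and 0.107 against 0.0299 and 0.0327 (log2 ratios 1.19 and 1.46). Cenps had 0.145 and 0.175 against 0.0245 and 0.0291 (log2 ratios 2.17 and 2.24). Cenpx, the partner of Cenps, which also serves in DNA repair, was not called, at 2.26 and 2.24 against 1.44 and 1.57 (log2 ratios 0.65 and 0.51). The other genes called higher, Cenpm, Cenpp, Cenpq and Cenpu, had log2 ratios from 1.88 to 2.72, and Cenpi and Cenpo were under the level minimum. Cenpk, Cenpo, Cenpp, Cenpq, Cenpt and Cenpu each overlap a protein-coding gene on the other strand.

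**Figure D2:**
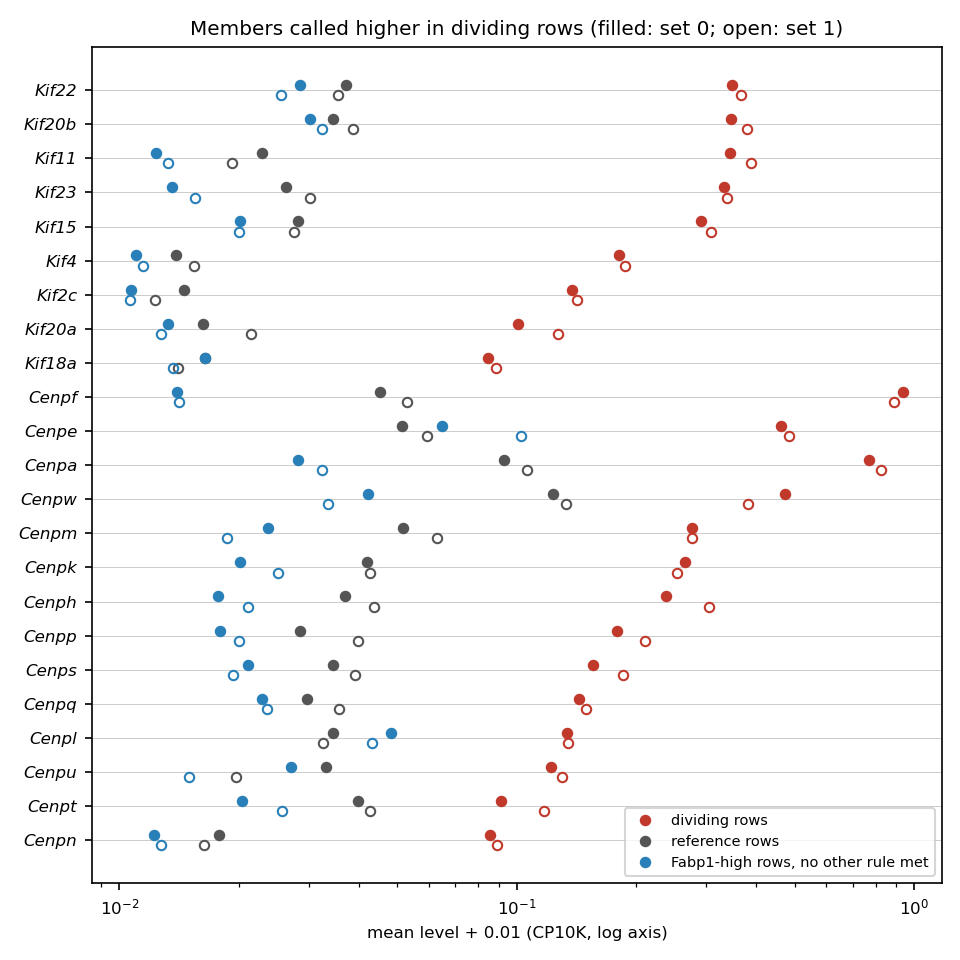
Mean level plus 0.01 in CP10K (log axis) of the 23 genes called higher in dividing rows, in dividing rows (red), reference rows (grey) and Fabp1-high rows that met no other rule (blue), filled for set 0 and open for set 1. The red points lie to the right of the others for every gene, and in both sets Cenpe and Cenpl have blue points to the right of the grey ones.

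The level followed the number of Mki67 and Top2a UMIs in a row. The 4 steps were the reference rows, which have 0 such UMIs, and all rows with 1, 2 to 4 and 5 or more. Fabp1-high and mucus-gene rows are thus left out of the first step and kept in the others. Across the steps Cenpf had means of 0.0352, 0.122, 0.529 and 1.86 CP10K in set 0. In set 1 the Cenpf means were 0.0428, 0.129, 0.415 and 1.83. Kif11 had means of 0.0128, 0.0227, 0.148 and 0.708 in set 0 and 0.00924, 0.0419, 0.154 and 0.816 in set 1. In 22 of the 23 genes the mean was higher at each step in both sets, and Kif18a was the exception. Rows with 5 or more were also deeper, at a median of 27591.2 and 24990 UMIs against 19693 and 19637 in the reference; the part of depth in this order was not tested.

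Shares of cells with a transcript were read after each cell was thinned to 8000 UMIs, which left out 6 and 10 dividing rows and 13 and 17 reference rows. Cenpf was seen in 31.8% (29.0% to 34.7%) of the dividing cells of set 0 and 33.3% (30.4% to 36.4%) of set 1 (exact Clopper-Pearson 95% intervals). In Fabp1-high rows that met no other rule, taken as the background, it was seen in 0.293% and 0.272%, and in the reference in 2.65% and 2.98%. Median depth before thinning was 25055 and 22983 UMIs in the dividing rows and 25245 and 23902 in those Fabp1-high rows. The unthinned shares were 49.0% and 47.8% in the dividing rows and 1.04% and 0.851% in the Fabp1-high rows.

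Per cell, the 12 mitotic kinesins were detected together in part of the dividing rows. At 8000 UMIs, 46.3% of the dividing cells of set 0 and 44.2% of set 1 had none of the 12, and 21.8% and 24.0% had 3 or more. Of the Fabp1-high cells that met no other rule, 95.1% and 94.5% had none, and 0 of 3076 and 0 of 2575 had 3 or more, which allows a share of up to 0.0975% and 0.117%. In the reference 0.301% and 0.132% had 3 or more.

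Genes that work beside these proteins divided in a like way between mitotic and interphase roles. In dividing rows 9 of 13 genes of the outer kinetochore and 11 of 12 of the chromosomal passenger and checkpoint complexes were called higher. So were 12 of 12 of the spindle and midzone and 2 of 5 of a Cenpa loading list. That list also holds Itgb3bp, a centromere protein gene rather than a loading factor, which was not called (log2 ratios 0.52 and 0.79). Knl1, the checkpoint platform of the kinetochore, had 0.299 and 0.335 CP10K in the dividing rows against 0.00855 and 0.00965 in the reference, and Aurkb, the kinase of the passenger complex, 0.328 and 0.368 against 0.00538 and 0.00789. These 34 were among 62 genes of the lists that reached the level minimum, beside 4.59% higher of all genes measured. The spindle list holds the C-terminal kinesin Kifc1. None of 9 partner genes (kinesin light chains, adaptors, Kifc2 and Kifc3) and none of 18 dynein and dynactin genes was called. Dync1h1, the dynein heavy chain, had 0.601 and 0.597 against 0.735 and 0.634. In the Fabp1-high rows, described further on, 4 of the 34 genes of these lists that reached the level minimum were called lower, beside 3.89% of all genes measured: Spc24 of the Ndc80 complex, the checkpoint gene Mad2l1, Cdca3 and the dynein light chain Dynll1, at 0.409 and 0.359 against 1.48 and 1.41.

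Within the dividing rows, cells were divided by the sums of 18 S-phase and 18 G2/M genes, none of them a Kif or Cenp gene. The G2/M-leaning rows (above the median of the G2/M sum and below that of the S sum) numbered 160 in set 0 and 138 in set 1, as did the S-leaning rows with the opposite pattern. The other dividing rows were left out: 385 and 348 lay above both medians and 386 and 349 above neither. Rows above both had mean G2/M sums of 30.0 and 34.65 CP10K, against 24.7 and 29.0 in the G2/M-leaning rows. Of the 58 genes, 41 reached the level minimum, 9 were higher in the G2/M-leaning rows and 1 in the S-leaning rows. Over all 9410 genes measured, 0.967% were higher in the G2/M-leaning rows and 2.01% lower.

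The 9 were Cenpa, Cenpe, Cenpf, Kif2c, Kif11, Kif14, Kif20a, Kif22 and Kif23. Cenpa stood at 1.57 and 1.64 CP10K in the G2/M-leaning rows of set 0 and set 1 and at 0.164 and 0.232 in the S-leaning rows (log2 ratios 3.18 and 2.77). Cenpf stood at 1.45 and 1.66 against 0.152 and 0.123 (log2 ratios 3.17 and 3.65), and Kif2c at 0.138 and 0.162 against 0.0158 and 0.00841 (log2 ratios 2.51 and 3.22). In the S-leaning rows these 3 genes were lower than in the G2/M-leaning rows but above their reference means in both sets.

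Kif22 stood at 0.425 and 0.552 CP10K in the G2/M-leaning rows against 0.0775 and 0.0843 in the S-leaning rows (log2 ratios 2.31 and 2.58). Kif11 had a smaller ratio, with 0.353 and 0.394 against 0.125 and 0.106 (log2 ratios 1.43 and 1.80). Kif15 was not called, with 0.248 and 0.323 against 0.188 and 0.235 (log2 ratios 0.38 and 0.44), and neither was Kif4 (log2 ratios 0.79 and 0.65). Whether Kif11 differed from Kif15 and Kif4 in this was not tested.

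Of the constitutive centromere network, Cenps was higher in the S-leaning rows, with 0.301 and 0.303 CP10K against 0.0636 and 0.106 in the G2/M-leaning rows (log2 ratios -2.08 and -1.43). That call was lost when rows were divided by whichever list sum was higher relative to its median. Cenpk (log2 ratios -0.93 and -0.87), Cenph (-0.57 and -0.78) and Cenpu (-0.70 and -1.13) had values below 0 in both sets without reaching the 2-fold limit in both. Cenpw lay on the other side (log2 ratios 0.84 and 0.99), also without a call. Depth differed little in set 1, at medians of 20677.5 and 20074.5 UMIs in the G2/M-leaning and S-leaning rows, and more in set 0, at 26667 and 20743.5.

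**Figure D3:**
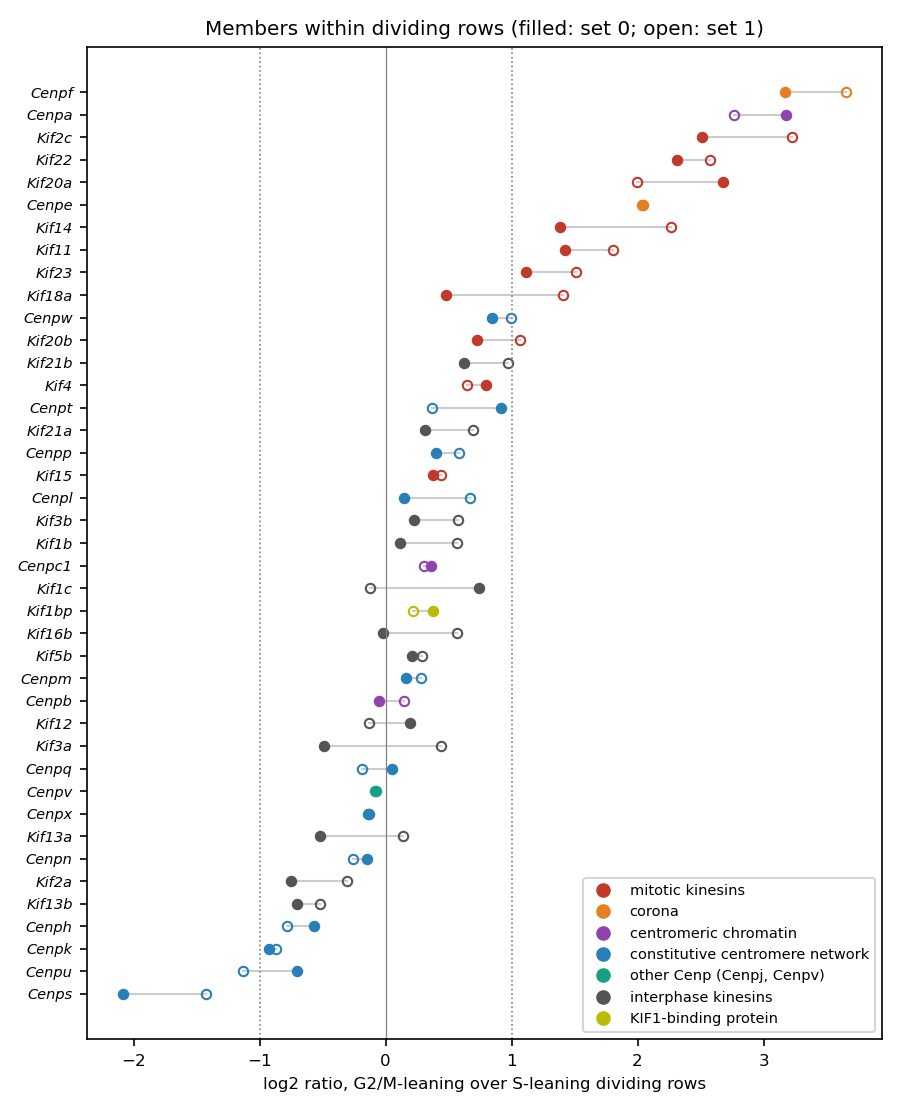
Log2 ratio of G2/M-leaning over S-leaning dividing rows (x axis) for the 41 genes that reached the level minimum, 1 gene a line, filled for set 0 and open for set 1 and coloured by role; dotted lines mark the 2-fold limits. In set 0 Cenpa and Cenpf lie farthest to the right, at 3.18 and 3.17, in set 1 Cenpf and Kif2c do, at 3.65 and 3.22, and Cenps lies farthest to the left, at -2.08 in set 0.

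Promoters are shown for 3 genes that were higher in both dividing and G2/M-leaning rows, and for Kif12, which was not called in dividing rows and was lower in Fabp1-high rows, as described further on. Each is the 250 bases before the first listed transcript start in RefSeq (GRCm38.p6), printed along the gene's strand. Capitals mark TTTGAA and TTTAAA, 2 forms of the cell cycle homology region bound by repressor complexes in resting cells, and CCAAT, bound by the NF-Y activator, each on either strand (TTCAAA and ATTGG are the reverse forms). The Kif11 window is chr19:37376132-37376381, plus strand, that of Kif22 chr7:127042421-127042670, minus strand, that of Cenpa chr5:30666636-30666885, plus strand and that of Kif12 chr4:63172132-63172381, minus strand.
Kif11: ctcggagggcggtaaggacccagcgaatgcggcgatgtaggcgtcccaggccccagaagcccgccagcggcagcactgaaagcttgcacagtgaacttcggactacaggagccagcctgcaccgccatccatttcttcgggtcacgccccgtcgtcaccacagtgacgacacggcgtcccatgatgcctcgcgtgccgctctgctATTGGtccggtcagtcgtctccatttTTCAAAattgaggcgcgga
Kif22: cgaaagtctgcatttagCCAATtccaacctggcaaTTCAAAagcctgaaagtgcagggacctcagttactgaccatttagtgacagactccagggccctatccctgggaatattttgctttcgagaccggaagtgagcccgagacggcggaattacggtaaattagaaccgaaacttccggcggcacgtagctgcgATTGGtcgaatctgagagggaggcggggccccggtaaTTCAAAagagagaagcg
Cenpa: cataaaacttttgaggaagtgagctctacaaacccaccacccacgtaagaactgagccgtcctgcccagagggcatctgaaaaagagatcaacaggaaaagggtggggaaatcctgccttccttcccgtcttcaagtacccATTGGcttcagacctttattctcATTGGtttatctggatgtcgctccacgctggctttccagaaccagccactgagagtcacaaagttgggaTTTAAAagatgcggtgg
Kif12: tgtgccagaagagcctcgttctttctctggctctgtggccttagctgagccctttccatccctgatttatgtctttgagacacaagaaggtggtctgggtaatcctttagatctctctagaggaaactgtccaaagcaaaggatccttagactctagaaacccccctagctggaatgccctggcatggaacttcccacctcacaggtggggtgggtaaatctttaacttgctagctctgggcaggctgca

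In these windows a form of the homology region started 19 bases before the RefSeq start in Kif11. In both Kif22 and Cenpa it started 17 bases before that start. A CCAAT box lay further upstream, at 45 bases in Kif11, 54 in Kif22 and 86 in Cenpa. In the GENCODE annotation Kif22 (from base 127042471, minus strand) and Cenpa (from base 30666777, plus strand) start upstream of the RefSeq start. By that annotation the matches at 17 bases, and the CCAAT box of Cenpa at 86 bases, lie inside the gene. Kif12 had none of the 3 motifs. Over windows of 300 bases, from 250 before to 50 after the start, 51 of the 58 genes had an entry, and 22 of the 23 genes called higher in dividing rows. Kif13b, Kif19a, Kif20a, Kif21b, Kif28, Kif5a and Kif5b had none.

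TTTGAA or TTTAAA was in 14 of the 22 windows (63.6%), against 5 of the 29 other windows and 27.8% of all 27025 promoters. CCAAT was in 15 of the 22 (68.2%), against 12 of the 29 and 37.9% of all promoters. Of the 9 genes higher in G2/M-leaning rows, 8 had a window, all 8 held TTTGAA or TTTAAA and 7 held CCAAT. The layout of the 3 printed genes was not that of all 8. Counted from the start used, these forms lay at 3 in Kif23, 3 and -154 in Cenpf and 15 in Cenpe. They lay at -42 and -228 in Kif14 and at -103 and -234 in Kif2c. Cenpp, Cenps and Kif18a, called higher in dividing rows, held none of the 3 motifs. Kif26b, under the level minimum, held TTTGAA at -9 and CCAAT at -73. A match is a run of letters and not a tested site. For 41 of the 51 genes the bases just after the start used were found at the start of an annotated transcript; for the rest the start may lie elsewhere.

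In the Fabp1-high rows 0 of the 58 genes were called higher and 3 lower, out of 20 that reached the level minimum. Over all 9053 genes measured, 1.81% were called higher and 3.89% lower. The 3 were Kif12, Cenpa and Cenpw. Of the genes that reached the level minimum, the highest log2 ratio was 0.88, for Cenpe in set 1. No mitotic kinesin reached the level minimum in this comparison, so a decrease of these from the reference could not be called.

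Kif12 (chromosome 4, bases 63165630 to 63172131, minus strand), a kinesin of epithelial organs, stood at 0.733 CP10K in set 0 and 0.931 in set 1 in the reference and at 0.254 and 0.383 in the Fabp1-high rows (log2 ratios -1.49 and -1.26). Its summed counts in set 0 were 2520 UMIs, or 0.259 per 10000 (95% Poisson interval 0.249 to 0.269) in the Fabp1-high rows and 2834 UMIs, or 0.728 per 10000 (95% Poisson interval 0.701 to 0.755) in the reference. In the dividing rows it was not called, at 0.780 and 0.838 (log2 ratios 0.09 and -0.15). Cells with a Kif12 transcript at 8000 UMIs made up 42.0% and 49.9% of the reference, 44.3% and 48.0% of the dividing rows and 16.7% and 23.5% of the Fabp1-high rows that met no other rule; unthinned they made up 69.8% and 78.4%, 77.1% and 79.8% and 36.3% and 48.2%. Among the 12 interphase kinesins that reached the level minimum, it was the 1 called in any of the 3 classes.

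Along 4 quartiles of Fabp1, over rows with no Mki67, Top2a or mucus-gene class, Kif12 went from low to high Fabp1 through 0.792, 0.495, 0.290 and 0.158 CP10K in set 0 and 1.01, 0.664, 0.321 and 0.255 in set 1. It was lower in each quartile than in the one before, in both sets. Cenpa went through 0.0997, 0.0293, 0.0161 and 0.0180 in set 0 and 0.118, 0.0404, 0.0187 and 0.0229 in set 1, and Cenpw through 0.126, 0.0681, 0.0334 and 0.0234 in set 0 and 0.141, 0.0552, 0.0255 and 0.0116 in set 1. These 3 were again the genes called lower between the outer quartiles and 0 were called higher. Over all 9144 genes measured, 8.92% were lower and 3.12% higher. The quartiles differed in more than Fabp1. Mean Fabp6, the bile acid binding protein of the ileum, went through 48.0, 62.3, 26.9 and 3.11 CP10K in set 0. In set 1 it went through 1.42, 2.15, 2.74 and 1.62. The top quartile held 1632 rows of set 0 and 586 of set 1. The part of gut region in these values was not tested.

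Cenpe and Cenpf parted in the Fabp1-high rows. In Fabp1-high rows that met no other rule, Cenpe stood at 0.0548 and 0.0925 CP10K in set 0 and set 1 against 0.0414 and 0.0495 in the reference, and Cenpf at 0.00398 and 0.00411 against 0.0352 and 0.0428. At 8000 UMIs Cenpe was seen in 4.10% (3.42% to 4.86%) and 7.77% (6.76% to 8.87%) of those cells, and in 2.47% (1.78% to 3.33%) and 4.03% (3.10% to 5.15%) of the reference cells. Kif11 was seen in 0.228% and 0.155% of the same Fabp1-high cells. The unthinned shares there were 12.5% and 17.9% for Cenpe and 0.682% and 0.696% for Kif11. A Cenpe transcript was thus seen in non-dividing Fabp1-high rows at a share that Kif11 and Cenpf did not reach there. The mean Cenpe level did not meet the 2-fold limit in either set (log2 ratios 0.33 and 0.79).

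Within the Fabp1-high rows that met no other rule, Cenpe had a higher mean in both sets where Fabp6, the bile acid binding protein of the ileum, was at least 10 CP10K. It stood there at 0.0899 CP10K in the 735 rows of set 0 and 0.187 in the 179 rows of set 1, against 0.0437 and 0.0854 in the other rows. The log2 ratios of 0.90 and 1.05 lay on either side of the 2-fold limit. None of the 58 genes was called in this comparison, against 0.582% of 8586 genes called higher and 0.594% lower. Median depths were near each other, at 26415 and 25913 UMIs in the rows with Fabp6 and 25001 and 23633 in the others.

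**Figure D4:**
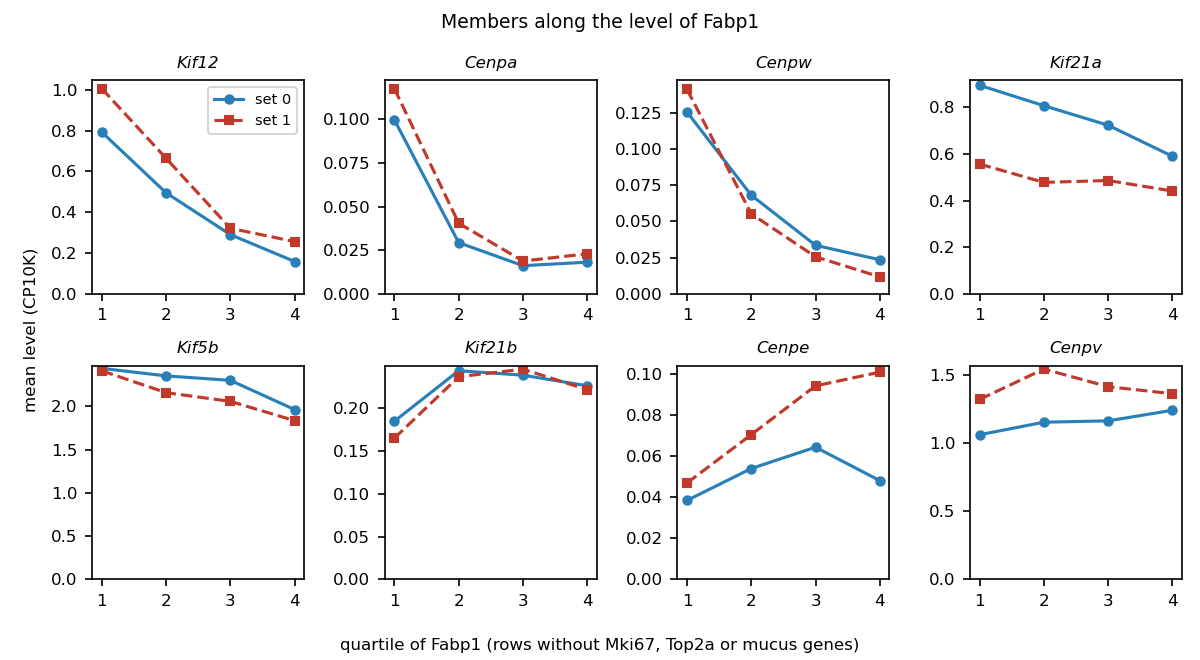
Mean level in CP10K (y axis, from 0) of 8 genes over the 4 quartiles of Fabp1 (x axis), in rows without Mki67, Top2a or the mucus-gene class, for set 0 (blue circles) and set 1 (red squares). Kif12, Cenpa and Cenpw are lower in the top than in the bottom quartile in both sets, and Cenpe is higher at the top in both sets, with log2 ratios of top over bottom of 0.26 and 0.96 after 0.01 CP10K was added.

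No interphase kinesin other than Kif12 was called in the dividing or Fabp1-high rows. Kif5b, the conventional kinesin that carries organelles and vesicles, stood at 2.42 and 2.32 CP10K in the reference of set 0 and set 1, 2.25 and 2.25 in the dividing rows and 2.13 and 2.05 in the Fabp1-high rows. Kif21a, a brake on microtubule growth, stood at 0.868 and 0.510 in the reference, 0.516 and 0.406 in the dividing rows and 0.670 and 0.484 in the Fabp1-high rows, so it was higher in set 0 than in set 1 in each class. Its log2 ratios in the dividing rows were -0.74 and -0.32. Kif21b, its relative, was not called in any class (log2 ratios 0.27 and 0.44 in the Fabp1-high rows).

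The cilium motor subunits Kif3a and Kif3b were not called. Kif3a stood at 0.111 and 0.0919 CP10K in the reference and 0.0608 and 0.0631 in the Fabp1-high rows (log2 ratios -0.77 and -0.48), and Kif3b at 0.229 and 0.172 in the reference and 0.222 and 0.179 in the Fabp1-high rows (log2 ratios -0.04 and 0.05). In the dividing rows their log2 ratios were -0.66 and -0.29 for Kif3a and -0.60 and -0.28 for Kif3b, below 0 in both sets. The vesicle motors Kif1b, Kif1c, Kif13a, Kif13b and Kif16b had log2 ratios between -0.60 and 0.05 in the Fabp1-high rows. Kif1bp was lower in the dividing rows by less than 2-fold, at 0.146 and 0.151 against 0.247 and 0.220 in the reference (log2 ratios -0.72 and -0.51). Cenpv, of the Cenp names, stood at 1.84 and 2.09 in the dividing rows and 1.10 and 1.43 in the reference (log2 ratios 0.74 and 0.54).

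In the mucus-gene rows 15 of the 58 genes were called higher and 0 lower, out of 34 that reached the level minimum, against 7.04% higher and 0.174% lower of all 9743 genes measured. The 15 were 9 mitotic kinesins (Kif2c, Kif4, Kif11, Kif14, Kif15, Kif20b, Kif22, Kif23 and Kif24), both corona proteins, Cenpa, Cenph, Cenpk and Cenpl. Some calls rested on few UMIs in set 0 and set 1. Kif14 had 8 and 5, Kif24 14 and 5, Kif2c 14 and 7, Kif4 17 and 8 and Cenpl 21 and 7. Counts summed over the rows of set 0 gave 0.0218 per 10000 for Kif14, 0.0382 for Kif24 and Kif2c and 0.0464 for Kif4. These values are under 0.05. In set 1, and for the rest of the 15 in set 0, the summed values were above 0.05. Except for Cenpa, the 15 had reference means under the level minimum in both sets, so they could not have been called lower. Cenpf stood at 0.481 and 0.868 CP10K against 0.0352 and 0.0428 in the reference (log2 ratios 3.44 and 4.05), and Kif11 at 0.236 and 0.273 against 0.0128 and 0.00924 (log2 ratios 3.43 and 3.88). Of these rows, 40 of 127 in set 0 and 23 of 55 in set 1 also had Mki67 or Top2a.

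In the 54 and 24 mucus-gene rows that met no other rule, 2 genes were called higher and 0 lower, against 7.75% higher and 1.02% lower of all 9665 genes measured. Cenpf stood at 0.0151 and 0.0198 CP10K there and Kif23 at 0.00265 and 0.0186, each on 1 UMI in set 0 and 1 in set 1, too few to place either against the reference. Of the 15 genes called in all mucus-gene rows, 7 had log2 ratios above 0 in both sets here (Cenpa, Cenph, Cenpk, Cenpl, Kif11, Kif22 and Kif24) and 7 below 0 in both. Of the 15, 2 had no UMI in the 54 rows and 4 had none in the 24, where 0 UMIs allow up to 0.0214 and 0.0805 per 10000 (3 counts). Only 1 of the 15, Kif24, was also called in these rows. Kif11 kept log2 ratios of 1.11 and 1.48 but was under the level minimum there, at 0.0393 and 0.0436 CP10K, on 2 and 1 UMIs.

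Kif24, a centriole kinesin that represses the growth of cilia, stood at 0.112 and 0.121 CP10K in those rows against 0.0145 and 0.0133 in the reference (log2 ratios 2.32 and 2.49). The call rested on 8 UMIs in set 0 and 4 in set 1, or 0.0572 and 0.107 per 10000 when counts were summed over the rows. Cenpo, the other gene called, stood at 0.0659 and 0.0606 against 0.0182 and 0.0153 (log2 ratios 1.43 and 1.48), on 5 and 2 UMIs, and it overlaps Adcy3 and Ptrhd1. The summed counts of Cenpo gave 0.0357 and 0.0537 per 10000, of which the value of set 0 is under 0.05. The counts of Kif24 and Cenpo are too few to set the size of either difference.

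Among interphase kinesins, Kif1b, a carrier of mitochondria and vesicles, stood at 0.299 and 0.321 CP10K in the mucus-gene rows against 0.172 and 0.165 in the reference, under the 2-fold limit in both sets (log2 ratios 0.76 and 0.92). In the rows that met no other rule its log2 ratios were 1.04 and 0.83, on 34 and 9 UMIs. Kif13a, a vesicle motor, stood at 0.175 and 0.0754 against 0.0635 and 0.0580 and passed the limit in set 0 alone (log2 ratios 1.33 and 0.33). Cenpc1 had log2 ratios of 0.97 and 0.91 in the mucus-gene rows, and Kif21b had opposite signs in the sets (0.55 and -0.43). Median depth in the mucus-gene rows of set 1 was 11060 UMIs, against 23926 in set 0.

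**Figure D5:**
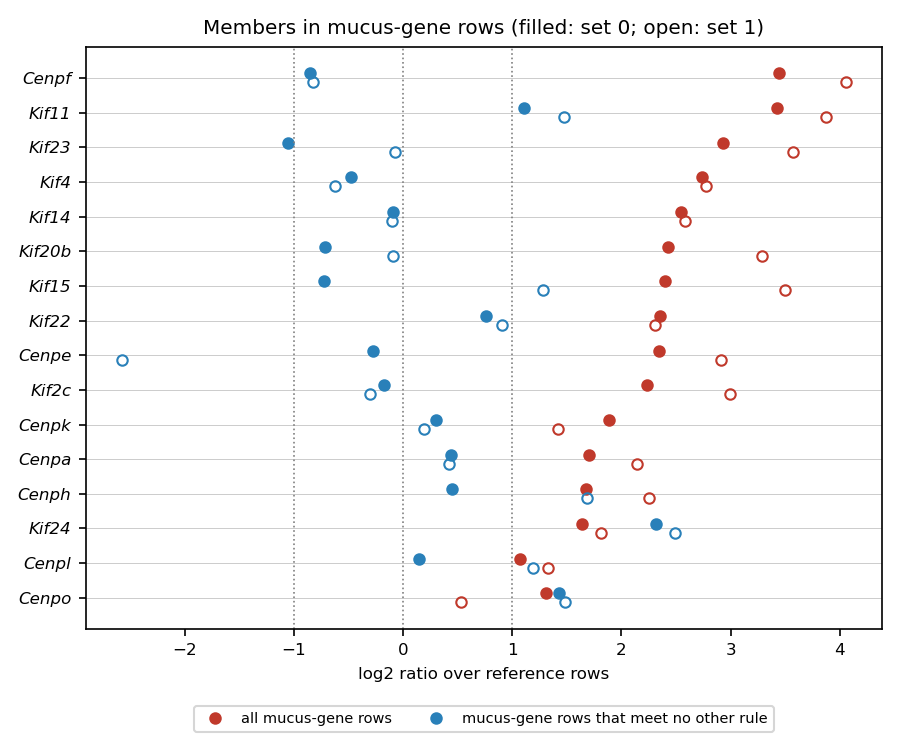
Log2 ratio over the reference (x axis) of the 15 genes called in the mucus-gene rows and of Cenpo, in all mucus-gene rows (red) and in those that met no other rule (blue), filled for set 0 and open for set 1; dotted lines mark 0 and the 2-fold limits. The blue points of Cenpf, Cenpe, Kif4 and Kif2c lie below 0, and those of Kif24 lie above its red ones.

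Taking only rows that met a single rule changed the other classes little. In the 815 and 760 dividing rows of that kind 24 genes were called higher, among them all 23 named above, against 5.75% of 9532 genes. In the 3081 and 2586 Fabp1-high rows of that kind the same 3 genes were called lower, against 4.2% of 9050 genes, and 0 were called higher, against 1.85%. Of the 23 genes called in dividing rows, 20 had lower means in these Fabp1-high rows than in the reference in both sets, and Cenpe, Cenpl and Kif18a did not.

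Enteroendocrine rows, with at least 5 CP10K of the hormone granule genes Chga and Chgb together, numbered 23 in set 0 and 17 in set 1; this comparison was chosen after the data were seen. In them 8 of the 58 genes were called higher and 0 lower, against 15.4% higher and 5.78% lower of all 10105 genes measured. The 8 were Kif1a, Kif1b, Kif2a, Kif23, Kif24, Cenph, Cenpl and Cenpq. How many of the 58 reached the level minimum here was not counted, so no excess over the share of all genes is claimed. UMIs were not summed for these rows. In set 0 Cenph (0.0730 CP10K), Cenpl (0.0715) and Kif23 (0.0643) lay near the level minimum. Kif1a, the carrier of dense-core vesicles, stood at 0.388 CP10K in set 0 and 0.536 in set 1, against 0.00567 and 0.0103 in the reference and at most 0.0222 in the dividing, Fabp1-high and mucus-gene rows of either set. The reference holds 12 of the 23 and 9 of the 17 enteroendocrine rows. Without its enteroendocrine rows the Kif1a mean of the reference was 0.00296 and 0.00486 CP10K, and the same 8 genes were called higher.

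Kif1b stood at 0.484 and 1.07 CP10K in the enteroendocrine rows against 0.172 and 0.165 in the reference, and Kif2a at 0.671 and 0.699 against 0.291 and 0.302. Kif13b stood at 0.223 and 0.848 against 0.148 and 0.146, far apart between the sets. Median depth was 10674.5 and 14283 UMIs in these rows. The rows of set 0 also held 2.14 CP10K summed over 3 neural markers, and those of set 1 held 0.180. Of 4 mesenchymal markers only Vim was seen, at 2.95 CP10K in set 0 and 0.294 in set 1. Col1a1, Col3a1 and Dcn were at 0 in both sets. The part of these markers in the kinesin values was not tested.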

How the data were processed

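Single-cell RNA was measured with 10x Genomics 3' v3/v3.1 chemistry in 1 Control and 1 Tet3KO library. The authors deposited 1 table of both, as linear signal values that add up to 10000 in every cell (CP10K). Salmon 0.14.1, alevin, Scanpy 1.6.0 and the builds GRCm38 and mm10 are named, per the submitters' processing notes; which cells were dropped and whether strand was used is not given in the sources used here. The labels state 10000 reads per cell. No label ties the barcode suffix to a genotype.

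UMIs were recovered by taking each cell's most frequent non-zero value as 1 UMI; in the median cell 94.9% of values were then whole within 0.01. The recovered depth rests on that step, and its median in each set lies above the labelled read number. Means, ratios and intervals were computed with Python 3.11.15, numpy 2.4.6, scipy 1.17.1 and pandas 2.3.3. With 1 sample a group there was no test. No doublet caller was run, and an alternative left out the 5% of rows with most UMIs.

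The genes named are all that met the symbol rule, with values for those of at least 0.05 CP10K in 1 class of 1 set and counts for the rest; Kif1a was named after its values were seen. The members, class rules and gene lists were chosen with earlier results of these data known. Gene overlaps come from GENCODE annotation of GRCm38. Alternatives changed the pseudocount, level minimum, fold, class limits, reference, scaling, thinning, shared barcodes and cell filter; a reference without enteroendocrine rows was added after seeing the data.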

Additional observations from a re-analysis of the deposited data

How the results depend on the processing

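The count of genes called higher in dividing rows, 23, stayed within 1.5 times of that under all alternatives run except a pseudocount of 0.1 CP10K (15) and a level minimum of 0.2 CP10K (12). The 3 genes lower in Fabp1-high rows became 1 under each of those settings, 0 at a 3-fold limit, 5 when dividing rows needed 2 UMIs, 5 when classes were set after thinning, and 20 against all rows outside the class, a reference that by construction holds the dividing rows. The 15 genes higher in mucus-gene rows became 8 with the pseudocount of 0.1, 4 with the minimum of 0.2, 8 against all rows outside the class and 2 in rows that met exactly 1 rule. In mucus-gene rows 1 gene was lower at a 1.5-fold limit. Higher in S-leaning rows were 0 genes, instead of 1, when rows were divided by the higher list sum. The cause was not tested for the settings beside which none is given.

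In mucus-gene rows that met exactly 1 rule, log2 ratios turned negative, in set 0 and set 1, for Cenpe (-0.28 and -2.57), Cenpf (-0.85 and -0.83), Kif14 (-0.089 and -0.10), Kif20b (-0.71 and -0.091), Kif23 (-1.06 and -0.078), Kif2c (-0.17 and -0.30) and Kif4 (-0.47 and -0.62), and for Kif15 in set 0 (-0.72); these rows are few, and the pseudocount sets the value where no UMI was seen. The share of dividing cells with Cenpf was 49.0% and 47.8% without thinning and 23.6% and 22.0% at 4000 UMIs, so shares hold only for the stated depth. Of 1476 values of single genes under alternatives, 1262 moved by less than their counting error, 199 by more, and 15 changed sign. No paired analysis was possible because the groups share only replicate number 1 and rows are not tied to samples.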
